A study of Homo sapiens with 4 samples.

Results

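The genes described here are 47 genes of sterol and fatty acid metabolism, out of 58735 genes counted in every library. They form a named list of enzymes, regulators and transporters, proposed with earlier results of these data known. No threshold on measured values picked them, and each was found by its symbol and Ensembl identifier in GENCODE release 29. They fall into 5 groups by role: 17 cholesterol synthesis enzymes, 5 regulators of the SREBP pathway, 9 genes of sterol transport, efflux, esterification and LXR signalling, 11 enzymes of fatty acid synthesis, elongation and desaturation, and 5 acyl-CoA synthetases and glycerolipid enzymes. The study asked how depletion of RALY, an hnRNP that binds RNA, changes gene expression in A549, a human lung adenocarcinoma cell line. Polyadenylated RNA was sequenced from 4 libraries. In the 2 shControl libraries, A549 cells labelled WT had been infected with a lentivirus carrying a control hairpin. In the 2 shRALY libraries, A549 cells labelled as RALY knockdown had been infected with a lentivirus carrying a hairpin against RALY. All 4 were labelled day 2, and all came from cells of 1 line grown with 10% FBS, a medium that supplies lipoproteins and fatty acids from serum. How many hairpins were used, and whether clones were picked, is not stated in the labels. Nothing in the labels says that replicates came from separate cultures. The p-values below therefore rest on a spread among libraries that may be technical.

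Cells make cholesterol from acetyl-CoA by way of mevalonate, squalene and lanosterol, and fatty acids from the same precursor through malonyl-CoA. When sterol in the endoplasmic reticulum is low, SCAP carries the SREBP factors to the Golgi, where cleavage frees the part that enters the nucleus and activates genes of both pathways. INSIG proteins hold SCAP back when sterol is plentiful, and oxysterols, oxidised forms of cholesterol, act through INSIG and as ligands of the LXR receptors, which activate cholesterol efflux genes. SREBF2 is known mainly for cholesterol synthesis genes and SREBF1 for fatty acid genes. Lung epithelium also makes lipid for surfactant, and tumour lines commonly express FASN and SCD at high levels. Counts of mRNA do not measure SREBP cleavage.

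Promoters of SREBP target genes are known to combine a sterol regulatory element with a CCAAT box, the site of the factor NF-Y. RefSeq promoter sequences on GRCh38.p14, 300 bases from 250 before to 50 after an annotated start, were matched to 44 of the 47 genes, in 66 windows. FASN, FDFT1 and SQLE were not matched. Both strands were searched for the sterol element TCACNCCAC, where N is any base, for CCAAT and for the E-box CACGTG, and no matches of different motifs overlapped. CCAAT was found in the windows of 31 of 44 genes (70.5%), against 39.7% of all genes with a window. By window the shares were 53% of member windows and 34.6% of all. Of the 15 cholesterol synthesis enzymes with a window, 13 held it. TCACNCCAC was found in 2 of 66 windows, those of SREBF2 and ACSL1, against 1.13% of 35116 windows. CACGTG was found in 10.6% of member windows, against 7.26% of all. The sequences below are the 250 bases before the start, 5′ to 3′ on the gene's strand, with matches to the sterol element or to the CCAAT box (read ATTGG where it lies on the other strand) in capitals. They show SREBF2, which holds both motifs (chr22:41832855-41833104, plus strand), 3 genes that rose after RALY knockdown, HMGCS1 (chr5:43313413-43313662, minus strand), MSMO1 (chr4:165327419-165327668, plus strand) and STARD4 (chr5:111512536-111512785, minus strand), and EBP (chrX:48521558-48521807, plus strand), which fell.
SREBF2: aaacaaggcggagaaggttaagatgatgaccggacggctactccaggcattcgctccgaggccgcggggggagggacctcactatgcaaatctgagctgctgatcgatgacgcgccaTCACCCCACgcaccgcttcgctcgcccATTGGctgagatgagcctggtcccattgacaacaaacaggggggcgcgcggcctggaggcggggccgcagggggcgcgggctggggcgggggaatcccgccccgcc
HMGCS1: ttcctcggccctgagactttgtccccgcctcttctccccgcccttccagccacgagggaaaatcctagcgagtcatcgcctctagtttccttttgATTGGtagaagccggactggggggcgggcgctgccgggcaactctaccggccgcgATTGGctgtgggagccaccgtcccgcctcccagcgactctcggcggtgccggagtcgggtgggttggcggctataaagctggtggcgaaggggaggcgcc
MSMO1: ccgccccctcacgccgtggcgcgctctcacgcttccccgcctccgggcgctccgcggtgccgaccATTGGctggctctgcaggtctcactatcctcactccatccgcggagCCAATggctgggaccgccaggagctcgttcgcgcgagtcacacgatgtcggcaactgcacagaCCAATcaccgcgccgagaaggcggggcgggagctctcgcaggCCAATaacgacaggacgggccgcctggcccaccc
STARD4: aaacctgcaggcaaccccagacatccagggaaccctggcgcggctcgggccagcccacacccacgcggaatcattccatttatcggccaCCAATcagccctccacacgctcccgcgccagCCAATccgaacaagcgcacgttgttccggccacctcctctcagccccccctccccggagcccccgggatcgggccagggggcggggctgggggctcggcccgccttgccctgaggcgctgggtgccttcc
EBP: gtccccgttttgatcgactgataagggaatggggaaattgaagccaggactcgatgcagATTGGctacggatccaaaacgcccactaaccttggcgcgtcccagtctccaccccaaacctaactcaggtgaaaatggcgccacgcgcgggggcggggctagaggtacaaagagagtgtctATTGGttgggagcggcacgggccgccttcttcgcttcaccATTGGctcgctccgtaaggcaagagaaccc
The SREBF2 match to the sterol element begins 133 bases before the start. MSMO1 has 4 CCAAT matches, EBP 3, HMGCS1 and STARD4 2 each. CCAAT was present in 7 of 9 genes with a window that rose, in 9 of 12 that fell and in 15 of 23 that did not pass the test, so genes of both directions carried it. A match is a run of letters, not a measured binding site.

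After RALY knockdown, ABCA1, the pump that loads cholesterol onto apolipoproteins, rose 5.50-fold, and CH25H, the enzyme that makes 25-hydroxycholesterol, went from no counts to 68 and 76 counts. STARD4, a carrier of cholesterol between membranes, rose 2.15-fold. Of 17 cholesterol synthesis enzymes, 4 rose and 6 fell, among them EBP, a late enzyme of the pathway, by 2.11 times, and the main enzymes of fatty acid synthesis, FASN, ACLY, ACACA and SCD, fell by 1.26 to 1.54 times. All 47 genes entered the test, CH25H through its shRALY counts alone. With edgeR's quasi-likelihood test and a threshold of 0.05 on the p-value adjusted over 15912 tested genes, 9 genes rose and 14 fell. Without CH25H, 8 of 46 rose and 14 fell. Over all tested genes, 20.6% rose and 20.4% fell, 41.0% in all. The members' shares were 19.1% higher, 29.8% lower and 48.9% in either direction.

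Most changes were small. A called change of 2-fold or more was found for 4 of 47 genes (8.51%), ABCA1, CH25H, STARD4 and EBP, against 13.6% of all tested genes. Without CH25H this was 3 of 46 (6.52%). The median log2 fold change was 0.06 over the members, also with CH25H set to its bound, and -0.01 over all tested genes. Without regard to sign the medians were 0.30 and 0.38. In 37 members (78.7%) the shRALY and shControl libraries did not overlap in CPM, counts scaled to a common library size,, against 69.7% of all tested genes, and 14 of these 37 did not pass the test. Fewer members passed as lower when either shRALY library was left out, in refits that leave 1 library in that group. No called member changed direction in them. The number of higher members was 14 without shControl replicate 1. In bulk RNA, fewer cells expressing a gene and less of its RNA per cell cannot be told apart.

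**Figure D1:**
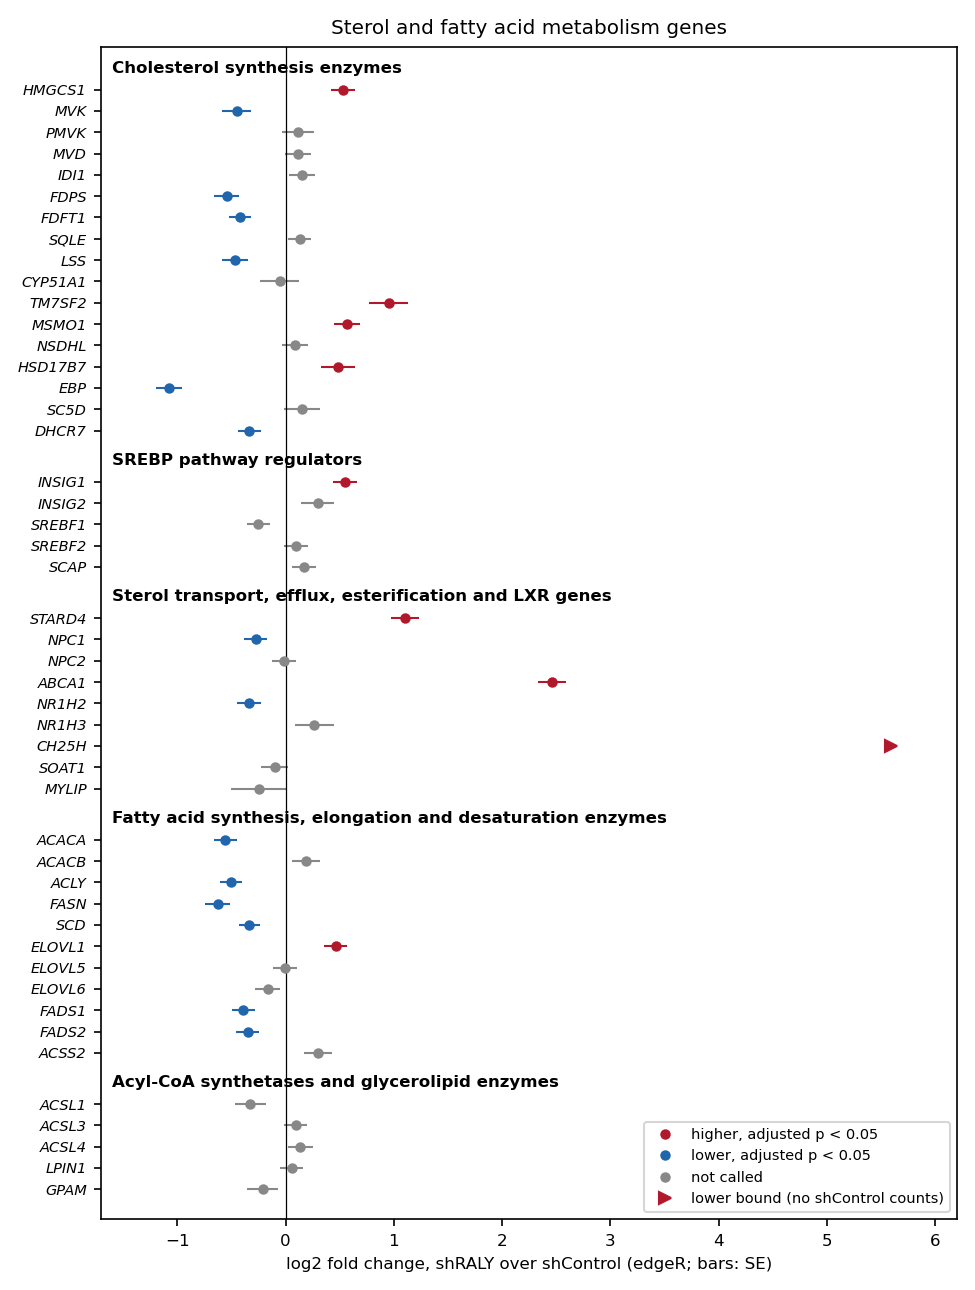
The x axis gives the edgeR log2 fold change of shRALY over shControl with its standard error (bars) for the 47 genes, grouped by role, red where the gene rose, blue where it fell and grey where it did not pass the test. ABCA1 at 2.46 and the lower bound of CH25H at 5.59 (triangle) lie to the right of all other members, EBP at -1.08 lies farthest to the left, and 6 of the 11 fatty acid synthesis genes lie on the lower side in blue.

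**Figure D2:**
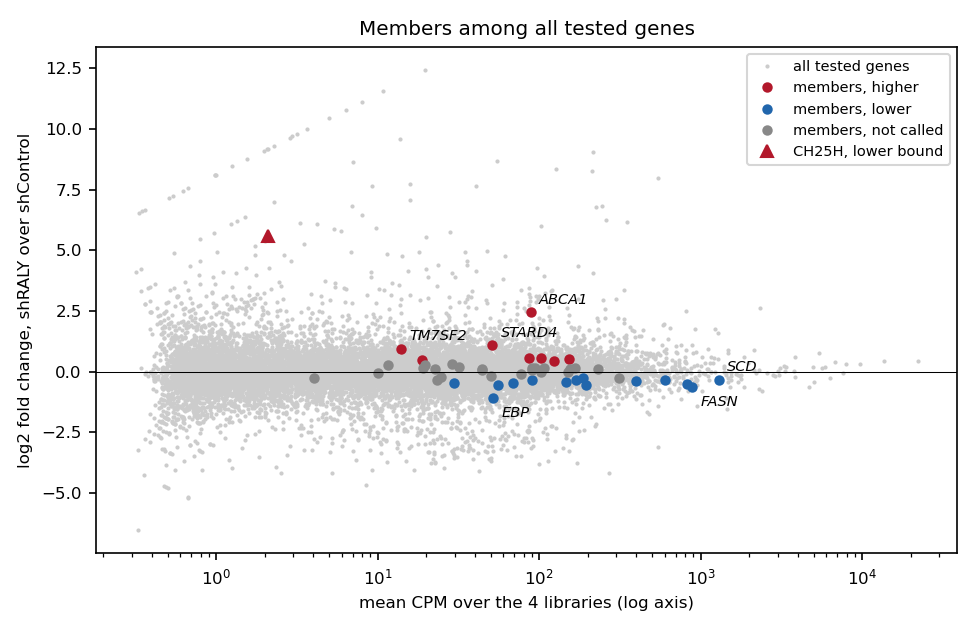
Each point is a gene, with the mean CPM of the 4 libraries on the x axis (log scale) and the log2 fold change on the y axis, all 15912 tested genes in grey and the members in colour. Fitted values of genes with no shControl counts, the line of points at the upper left, depend on the model and are not bounds, while CH25H is drawn at its bound. Most members lie near 0, and FASN and SCD are among the most abundant of them.

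Depth and identity of the libraries were as follows. Totals ranged from 16745818 to 18632787 counts, so that 3 counts, used as the floor for a gene with none, equal 0.161 to 0.179 CPM. RALY (chr20:33993646-34108308) measured 123.3 and 133.4 CPM in shControl and 40.9 and 41.5 CPM in shRALY, 32.1% of control (-1.64 ± 0.11 on the log2 scale, edgeR adjusted p = 5.85e-11). The 6 epithelial markers summed to 8162 and 8889 CPM in shControl and 9292 and 9397 CPM in shRALY, and KRT7, KRT19 and CDH1 rose. KRT7, KRT8 and KRT18, keratins of simple epithelium, stood at 1595 CPM or more in every library, and EPCAM at 2.29 to 3.54 CPM. KRT8 and KRT18 are uncertain, with 22.1% and 21.7% of their 50-base words shared with other annotated genes, and among the immune and adipocyte markers CD68, LYZ and ADIPOQ are uncertain because their exons overlap another gene. The cells are labelled as alveolar. Of the 8 alveolar type II markers, SFTPA1, SFTPB, SFTPC, SFTPD and NKX2-1 were at or below 0.245 CPM everywhere, NAPSA was at 0.673 to 1.63 CPM, and ABCA3, a surfactant lipid transporter, was at 72.2 to 103.2 CPM. LAMP3 was at 0.0558 and 0.235 CPM in shControl and at 27.2 and 36.3 CPM in shRALY. The 8 immune markers summed to 5.44 to 8.54 CPM, nearly all of it CD14, with CD3E, LYZ and CD163 at 0. The 6 fibroblast markers summed to 20.8 and 19.6 CPM in shControl and 15.1 and 17.7 CPM in shRALY. The 5 hepatocyte markers summed to 2.26 to 4.13 CPM and the 4 adipocyte markers to 1.53 to 2.02 CPM, with ADIPOQ and LEP at 0. Mitochondrially encoded genes took 7.67% and 6.99% of counts in shControl and 8.88% and 8.66% in shRALY. The part of these marker and mitochondrial differences in the results below was not tested.

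Cholesterol synthesis did not move as a unit. Of the 17 enzymes, 4 rose (HMGCS1, TM7SF2, MSMO1, HSD17B7), 6 fell (MVK, FDPS, FDFT1, LSS, EBP, DHCR7) and 7 did not pass the test, with a median log2 fold change of 0.12. Higher and lower shares were 23.5% and 35.3%, against 20.6% and 20.4% of all tested genes. Summed over the 17 genes, CPM was 1228 and 1188 in shControl and 1196 and 1157 in shRALY, ranges that overlapped. HMGCS1 (chr5:43289395-43313512), which joins acetyl-CoA units ahead of mevalonate, measured 132.7 and 117.0 CPM in shControl and 184.0 and 177.1 CPM in shRALY. Both knockdown libraries were above both controls, and the log2 difference was 0.53 ± 0.11 (SE; edgeR, adjusted p = 0.000371). The next enzymes of the mevalonate segment went the other way or did not pass. MVK, mevalonate kinase, measured 32.7 and 36.3 CPM against 27.2 and 23.2 CPM (-0.45 ± 0.14, edgeR adjusted p = 0.011). FDPS, which makes farnesyl diphosphate, fell from 65.7 and 65.3 CPM to 45.7 and 44.1 CPM (-0.54 ± 0.11, edgeR adjusted p = 0.000545). PMVK, MVD and IDI1, the enzymes between them, had log2 fold changes of 0.12, 0.12 and 0.15 and overlapping groups.

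The enzymes that make squalene and close it into the sterol ring were also on the lower side or uncalled. FDFT1, squalene synthase, fell from 172.9 and 162.4 CPM to 128.6 and 121.9 CPM (-0.42 ± 0.11, edgeR adjusted p = 0.00274). LSS, the cyclase that forms lanosterol, fell from 74.7 and 85.3 CPM to 63.2 and 52.4 CPM (-0.47 ± 0.12, edgeR adjusted p = 0.00367). Between these steps stands SQLE, squalene epoxidase, at 168.6 and 147.4 CPM in shControl and 174.8 and 171.6 CPM in shRALY (0.13 ± 0.11, edgeR adjusted p = 0.349). Its libraries did not overlap, and the difference did not pass the test.

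Among the enzymes that turn lanosterol into cholesterol, 3 rose and 2 fell. TM7SF2, a sterol C14 reductase, went from 8.10 and 10.9 CPM to 18.3 and 18.4 CPM (0.95 ± 0.18, edgeR adjusted p = 0.000169). MSMO1, the C4-methyl sterol oxidase, went from 77.4 and 61.2 CPM to 100.8 and 104.9 CPM (0.57 ± 0.12, edgeR adjusted p = 0.000582). The groups were apart for both, and the shRALY libraries lay close together. HSD17B7, the 3-ketosteroid reductase of the same demethylation complex, measured 17.5 and 13.9 CPM against 22.7 and 21.2 CPM (0.48 ± 0.16, edgeR adjusted p = 0.0175). EBP (chrX:48521158-48528716), the sterol isomerase, fell from 69.5 and 71.3 CPM to 36.2 and 30.5 CPM, the largest decrease among the members (-1.08 ± 0.12, edgeR adjusted p = 2.17e-07). DHCR7, which makes cholesterol from 7-dehydrocholesterol, fell from 176.6 and 198.4 CPM to 147.0 and 150.4 CPM (-0.33 ± 0.11, edgeR adjusted p = 0.015). NSDHL and SC5D, of the same segment, had log2 fold changes of 0.09 and 0.15 and did not pass. CYP51A1, the lanosterol demethylase, had a log2 fold change of -0.06 and is uncertain, since 88.9% of its 50-base words were shared with another annotated gene and 83.2% of its exons overlapped one.

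The direction of every call among the cholesterol enzymes held when any 1 library was left out, but several calls did not. Without shRALY replicate 2 the edgeR adjusted p was 0.272 for MVK (log2 fold change -0.33), 0.0526 for FDPS (-0.51), 0.156 for FDFT1 (-0.37), 0.241 for LSS (-0.33), 0.199 for DHCR7 (-0.34) and 0.0693 for HSD17B7 (0.54), leaving EBP as the 1 lower call. Without shRALY replicate 1 it was 0.0717 for FDFT1 (-0.45), 0.249 for DHCR7 (-0.31) and 0.165 for HSD17B7 (0.44). DESeq2 did not call HSD17B7 (0.50, adjusted p = 0.0563), nor did edgeR when shControl replicate 2 was left out (0.34, adjusted p = 0.0735). Without shControl replicate 1, 7 enzymes were higher, since IDI1 (0.33, edgeR adjusted p = 0.00317), SQLE (0.23, edgeR adjusted p = 0.0284) and SC5D (0.40, edgeR adjusted p = 0.0495) then passed.

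**Figure D3:**
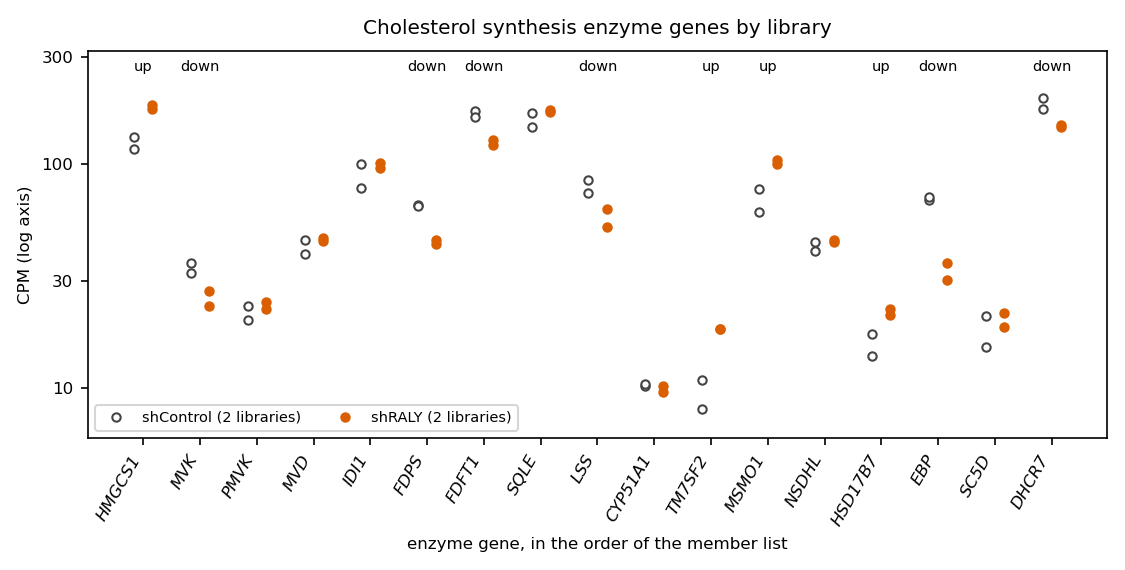
CPM on a log axis is shown for the 17 cholesterol synthesis enzyme genes in each of 2 shControl libraries (open points) and 2 shRALY libraries (filled points), ordered from HMGCS1 to DHCR7, with up or down written over genes that passed the test. HMGCS1 is up, the 4 calls from MVK to LSS are down, TM7SF2, MSMO1 and HSD17B7 are up and EBP and DHCR7 are down, with TM7SF2 at 18.3 and 18.4 CPM above its controls and EBP at 36.2 and 30.5 CPM below its controls.

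Of the 5 regulators of SREBP processing, 1 rose, INSIG1. This share of 20% was close to the 20.6% of all tested genes that rose. INSIG1 (chr7:155297776-155310235), the sterol-dependent anchor of SCAP and itself a known SREBP target, measured 90.3 and 75.6 CPM in shControl and 121.8 and 120.9 CPM in shRALY. The groups were apart, with a log2 difference of 0.55 ± 0.11 (SE; by edgeR, adjusted p = 0.000485). INSIG2, its paralogue, measured 19.3 and 16.1 CPM against 20.2 and 23.3 CPM and did not pass (0.30 ± 0.15, edgeR adjusted p = 0.136). The transcripts of the SREBP factors themselves were not called. SREBF1 stood at 306.1 and 376.3 CPM in shControl and 288.4 and 285.1 CPM in shRALY (-0.25 ± 0.11, edgeR adjusted p = 0.0719), and SREBF2 at 135.3 and 163.6 CPM against 154.9 and 164.2 CPM (0.09 ± 0.11, edgeR adjusted p = 0.542). SCAP, their escort, had a log2 fold change of 0.17. No regulator was lower by edgeR's test or by DESeq2, and 1, SREBF1, was lower at an unadjusted p under 0.05 in edgeR. Without shControl replicate 1, SREBF1 (-0.40, edgeR adjusted p = 8.22e-05) and INSIG2 (0.42, edgeR adjusted p = 0.029) passed. Without shControl replicate 2, SREBF2 (0.25, edgeR adjusted p = 0.0171) and SCAP (0.27, edgeR adjusted p = 0.0163) passed, so these transcripts depended on which control was used.

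Genes that move, store or sense sterol held the largest increases. Of the 9, 3 rose (ABCA1, CH25H, STARD4), 2 fell (NPC1, NR1H2) and 4 did not pass, and the median log2 fold change was -0.01. Higher and lower shares were 33.3% and 22.2% with CH25H counted, against 20.6% and 20.4% of all tested genes. ABCA1 (chr9:104781002-104928237) measured 25.7 and 28.8 CPM in shControl and 132.1 and 168.0 CPM in shRALY. The lower knockdown library was far above the higher control, a log2 difference of 2.46 ± 0.13 (SE; by edgeR, adjusted p = 5.93e-13). Per kilobase of exon, the scale used to compare levels between genes, ABCA1 went from 2.40 to 13.2 CPM per kb. CH25H (chr10:89205629-89207314), a gene without introns whose product makes an oxysterol, had 0 counts in both shControl libraries. In shRALY it had 68 and 76 counts, or 3.70 and 4.65 CPM. Set against 3 counts in the shControl libraries together, the floor for a gene with none, it was at least 48.3-fold higher, a bound given as a description because the gene entered the test through its shRALY counts alone. At 2.48 CPM per kb its shRALY level was among the lower ones of the members. STARD4 (chr5:111496033-111512590) measured 36.7 and 28.5 CPM against 72.7 and 67.3 CPM. Its groups were well apart, by 1.10 ± 0.13 on the log2 scale (edgeR adjusted p = 3.72e-07).

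The lysosomal cholesterol exporter NPC1 measured 209.4 and 199.4 CPM in shControl and 164.7 and 172.7 CPM in shRALY (-0.28 ± 0.10, edgeR adjusted p = 0.0358). Its partner NPC2, which hands cholesterol to NPC1 in the lysosome, measured 109.2 and 97.2 CPM against 107.6 and 97.0 CPM, with overlapping groups. NR1H2, which encodes LXR-beta, fell from 96.9 and 104.0 CPM to 77.6 and 81.3 CPM (-0.34 ± 0.11, edgeR adjusted p = 0.0168). NR1H3, which encodes LXR-alpha, measured 9.88 and 11.1 CPM against 13.4 and 11.7 CPM and did not pass (0.27 ± 0.18, edgeR adjusted p = 0.259). So the 2 receptor genes lay on opposite sides of 0, and 1 passed. MYLIP, an LXR-induced ubiquitin ligase, stood at 4.36 and 4.40 CPM in shControl and 3.70 and 3.67 CPM in shRALY (-0.25 ± 0.26, edgeR adjusted p = 0.476). It had 60 to 78 counts in each library, and its standard error was about as large as its change. Whether LXR activity changed was not tested. SOAT1, which esterifies cholesterol for storage, had overlapping groups at 69.2 to 91.5 CPM. Both lower calls were lost without either shRALY library. NPC1 had an edgeR adjusted p of 0.405 without replicate 1 (-0.24) and 0.265 without replicate 2 (-0.30), and NR1H2 of 0.291 (-0.30) and 0.183 (-0.36). Without a filter on low counts NPC1 also missed the threshold (edgeR adjusted p = 0.0543), and without shControl replicate 2 SOAT1 passed as lower (-0.27, edgeR adjusted p = 0.0164).

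**Figure D4:**
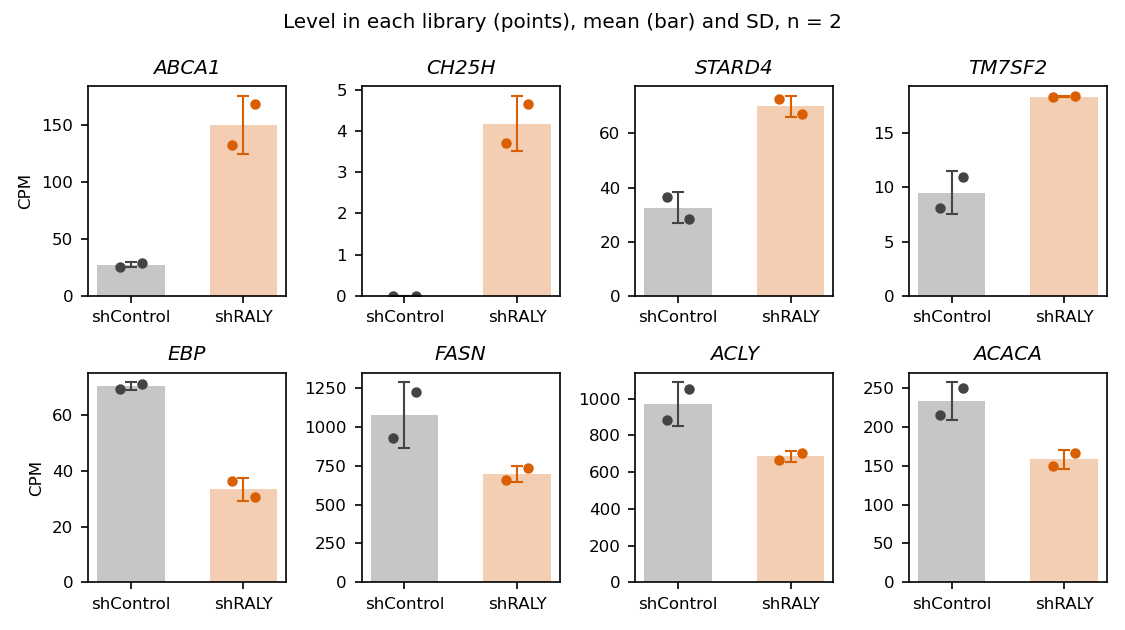
CPM is shown for 8 member genes, with each library as a point, the mean of each group as a bar starting at 0 and the SD over n = 2 as the error bar. The axes differ between panels. ABCA1, CH25H, STARD4 and TM7SF2 were higher in both shRALY libraries than in both shControl libraries, and EBP, FASN, ACLY and ACACA were lower in both.

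Fatty acid synthesis had the highest share of lower genes among the 5 roles, 54.5% against 35.3% for cholesterol synthesis, where 6 genes also fell. Over all tested genes 20.4% fell. Fewer fatty acid genes passed as lower when either shRALY library was left out, in refits that leave 1 library in that group. The changes of SCD, FADS1 and FADS2 were no smaller without shRALY replicate 2 (-0.37, -0.43 and -0.37) than in the full fit. Of 11 enzymes, 6 fell (ACLY, ACACA, FASN, SCD, FADS1, FADS2), 1 rose (ELOVL1) and 4 did not pass, and the median log2 fold change was -0.33. Their summed level was 4853 and 5559 CPM in shControl and 3834 and 4089 CPM in shRALY. FASN, SCD and ACLY made up 63.4% to 67.3% of that sum in each library. Per kilobase of exon these were the most abundant members, SCD at 269 CPM per kb in shControl and 213.4 in shRALY, ACLY at 185.8 and 131.3, and FASN at 114.8 and 74.3. ACLY (chr17:41866908-41930542), which splits citrate to cytosolic acetyl-CoA, measured 885.9 and 1053 CPM in shControl and 664.3 and 705.9 CPM in shRALY (-0.50 ± 0.10, edgeR adjusted p = 0.000431). ACACA (chr17:37084988-37406818), the carboxylase that makes malonyl-CoA for synthesis, fell from 215.5 and 249.7 CPM to 149.8 and 166.8 CPM (-0.56 ± 0.11, edgeR adjusted p = 0.000288). Its paralogue ACACB, known for restraining mitochondrial fatty acid uptake, stood at 28.4 and 30.8 CPM against 32.4 and 35.2 CPM and did not pass (0.19 ± 0.13, edgeR adjusted p = 0.26). FASN (chr17:82078333-82098332), the synthase that builds palmitate, measured 927.6 and 1223 CPM against 658.3 and 733.7 CPM. The controls differed from each other by more than the knockdown libraries did, yet the groups were apart (-0.63 ± 0.11, edgeR adjusted p = 0.000123).

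The 3 desaturases among the members fell, while of the 3 elongases among them 1 rose and 2 did not pass the test. SCD (chr10:100347124-100364834), which makes oleate from stearate, measured 1417 and 1467 CPM in shControl and 1110 and 1178 CPM in shRALY (-0.33 ± 0.09, edgeR adjusted p = 0.00638). FADS1 and FADS2, the front-end desaturases of polyunsaturated fatty acid synthesis, overlap on opposite strands at chr11:61799625-61829318 and chr11:61792980-61867354. FADS1 fell from 426.8 and 479.9 CPM to 333.3 and 359.7 CPM (-0.39 ± 0.10, edgeR adjusted p = 0.00434). FADS2 fell from 607.9 and 730.3 CPM to 515.1 and 534.8 CPM (-0.35 ± 0.10, edgeR adjusted p = 0.0102). Whether the counting used strand is not stated, and 5.6% of FADS1 and 4.9% of FADS2 exons overlap another gene. Of the elongases, ELOVL1, which extends very long saturated chains, rose from 103.4 CPM in both controls to 141.6 and 143.2 CPM (0.46 ± 0.11, edgeR adjusted p = 0.00123). ELOVL5, which extends polyunsaturated chains, had overlapping groups at 142.3 to 161.0 CPM. ELOVL6, which extends palmitate, measured 53.5 and 53.4 CPM against 48.1 and 47.3 CPM (-0.16 ± 0.12, edgeR adjusted p = 0.275). ACSS2, which makes acetyl-CoA from acetate, stood at 25.5 and 26.1 CPM in shControl and 31.6 and 31.9 CPM in shRALY (0.30 ± 0.13, edgeR adjusted p = 0.0747).

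FASN kept its call whichever library was left out, and the other fatty acid calls did not. Without shRALY replicate 1 the edgeR adjusted p was 0.0548 for ACACA (-0.47), 0.0534 for ACLY (-0.45), 0.258 for SCD (-0.28), 0.207 for FADS1 (-0.33) and 0.216 for FADS2 (-0.32), leaving 1 of 6 lower calls. Without shRALY replicate 2 it was 0.119 for SCD (-0.37), 0.0753 for FADS1 (-0.43), 0.136 for FADS2 (-0.37) and 0.0577 for ELOVL1 (0.46), leaving 3 lower calls. FADS2 also missed without shControl replicate 2 (-0.20, edgeR adjusted p = 0.0549), and ACSS2 then passed (0.33, edgeR adjusted p = 0.0431). Over all tested genes the same refits without shRALY replicate 1 or replicate 2 left 1897 and 1980 lower genes of 3245.

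The member acyl-CoA synthetases, which activate fatty acids for use, and the member glycerolipid enzymes LPIN1 and GPAM did not pass the test. Among the 5 genes edgeR and DESeq2 each called none, and at an unadjusted p under 0.05 edgeR had 1, ACSL1. ACSL1 measured 26.2 and 25.6 CPM in shControl and 19.4 and 22.0 CPM in shRALY (-0.33 ± 0.14, edgeR adjusted p = 0.0735). ACSL3, the most abundant of the group, stood at 209.4 to 240.3 CPM, and ACSL4, which prefers arachidonate, at 92.3 to 114.8 CPM, both with overlapping groups. LPIN1, a phosphatidate phosphatase, and GPAM, the mitochondrial glycerol phosphate acyltransferase, had log2 fold changes of 0.06 and -0.21. Without shControl replicate 1 ACSL4 passed as higher (0.28, edgeR adjusted p = 0.0108), and without shControl replicate 2 GPAM passed as lower (-0.34, edgeR adjusted p = 0.0439).

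Beside the 47 members, 4 lists of other genes of these pathways were read from the same fit, in which 20.6% of all tested genes rose and 20.4% fell. Of 20 tested other sterol genes, 7 rose and 5 fell, or 5 and 4 of 16 without ACAT2, GGPS1, STARD5 and HSD3B7, whose exons largely or partly overlap another gene. LIPA, the lysosomal acid lipase that frees cholesterol from esters, rose from 134.2 and 120.4 CPM to 295.2 and 307.7 CPM (1.24 ± 0.11, edgeR adjusted p = 2.18e-09). TMEM97, an endoplasmic reticulum protein that binds NPC1, fell from 122.6 and 115.1 CPM to 48.7 and 46.2 CPM (-1.33 ± 0.11, edgeR adjusted p = 2.02e-09). ERLIN2, a cholesterol-binding protein of the endoplasmic reticulum, and OSBP, which exchanges sterol between membranes, rose by 0.83 and 0.67 on the log2 scale (edgeR adjusted p = 2.47e-06 and 3.36e-05). Of 17 other genes of fatty acid supply, elongation and desaturation, 5 rose and 6 fell, also without OXSM and HSD17B12, uncertain for the same reason. FADS3 (chr11:61873519-61892051), the neighbour of FADS2, rose from 34.2 and 37.5 CPM to 73.6 and 67.2 CPM (0.97 ± 0.12, edgeR adjusted p = 6.54e-07), opposite to FADS1 and FADS2. The desaturase gene SCD5 and the elongase genes ELOVL4 and ELOVL7 also rose, by 0.34, 0.68 and 0.54 (edgeR adjusted p = 0.049, 0.048 and 0.000893). The elongase gene ELOVL2 fell, with a log2 fold change of -0.48 (edgeR adjusted p = 0.00516). SLC25A1, the citrate exporter that feeds ACLY, and HACD2 and TECR, enzymes of the elongation cycle, had log2 fold changes of -0.61, -0.62 and -0.61 (edgeR adjusted p = 9.2e-05, 7.27e-05 and 0.000108).

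Genes of triglyceride turnover were divided, with 4 of 16 higher and 5 lower, or 4 and 4 of 14 without AGPAT1 and FABP5, which are uncertain. PLIN2, the coat protein of lipid droplets, and PNPLA2, the adipose triglyceride lipase, rose by 0.63 and 0.44 (edgeR adjusted p = 0.000382 and 0.00319). LIPE, the hormone-sensitive lipase, fell from 6.81 and 7.40 CPM to 1.96 CPM in both knockdown libraries (-1.85 ± 0.26, edgeR adjusted p = 5.04e-06), and LPIN2, a relative of LPIN1, fell by 0.72 (edgeR adjusted p = 4.53e-05). Fatty acid oxidation had 9 of 22 tested genes higher (40.9%, against 20.6% of all genes) and 2 lower (9.09%, against 20.4%). The median log2 fold change was 0.23. Fewer oxidation genes passed as higher when either shRALY library was left out, in refits that leave 1 library in that group. Over all tested genes, too, fewer were called higher in these refits. ACADVL, which begins the oxidation of long chains, rose from 190.3 and 199.0 CPM to 353.8 and 356.1 CPM (0.87 ± 0.10, edgeR adjusted p = 3.38e-07), and DECR1, needed for unsaturated chains, rose by 0.62 (edgeR adjusted p = 0.000525). HADH, of the short-chain cycle, and ACAA1, a peroxisomal thiolase, had log2 fold changes of -0.88 and -1.02 (edgeR adjusted p = 4.01e-05 and 2.97e-06), and ACAA1 is uncertain because 21.2% of its exons overlap another gene. Without ACAA1 and ECI2, also uncertain, 8 of 20 oxidation genes were higher and 1 lower. Without shRALY replicate 1, 3 oxidation genes, 1 triglyceride gene and 4 other sterol genes remained above the threshold as higher, and PNPLA2 missed it (0.41, edgeR adjusted p = 0.112). Without shRALY replicate 2, 3 oxidation genes and 2 genes of fatty acid supply passed as higher. Lower counts were 2 for the other sterol genes without either shRALY library, and 2 and 3 for triglyceride genes without replicate 1 and replicate 2.

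**Figure D5:**
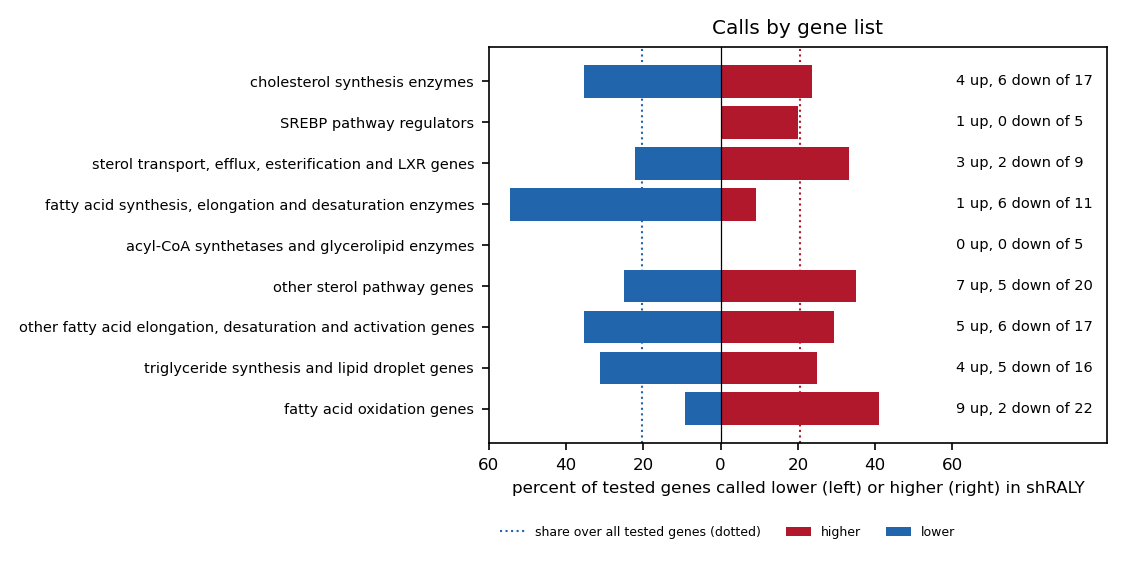
Bars give the percent of tested genes in each list that were lower (left, blue) or higher (right, red) in shRALY, with the counts at the right, and dotted lines give the same shares over all tested genes, 20.4% and 20.6%. Fatty acid synthesis has the longest bar on the lower side, with 6 of 11 genes, and fatty acid oxidation the longest on the higher side, with 9 of 22. Both bars come from the fit on all libraries, and both counts were smaller when either shRALY library was left out.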

How the data were processed

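The values are raw counts for Ensembl genes as the authors deposited them, with a file for each library and no normalisation. Per the submitters' processing notes, HISAT2 2.0.5, featureCounts 1.5.0-p3, DESeq2 1.20.0 and the hg38 build were used, with no role or order given. Not given in the sources used here are the annotation release, the strand setting and how reads with several matches were handled. In 1 file, 1 line was split by a space and was read the same way. All 58735 identifiers matched GENCODE release 29, the source of symbols, exon lengths and coordinates (GRCh38). The 47 members, the other lists, the tests and the alternatives were chosen with earlier results of these data known. All members are named. Of each other list, up to 4 called genes with the smallest adjusted p are named. SCD5, ELOVL2, ELOVL4 and ELOVL7 are named as well, beside the member desaturases and elongases.

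Counts were tested in R 4.3.3 with edgeR 4.0.16, after filterByExpr (minimum count 10, minimum total 15) and TMM scaling, by the robust quasi-likelihood F-test on 4 libraries without covariates, which leaves 2 residual degrees of freedom. The 15912 genes kept held 99.83% of counts. P-values were adjusted by the Benjamini-Hochberg method over all of them. Standard errors (SE) were obtained from the fitted log2 fold change and its F statistic, as the size of the former over the root of the latter. CPM uses TMM-scaled library sizes, and levels are compared between genes only per kilobase of the union of exons. The libraries carry no molecular identifiers, so the floor of 3 counts covers counting error only. A gene was called uncertain where over 20% of its 50-base words or exon bases were shared with another gene. The alternatives were DESeq2 1.42.0, other scalings and filters, a fit without robust estimation, protein-coding genes alone, a replicate block and leaving out each library. The code was tested on simulated data.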

Additional observations from a re-analysis of the deposited data

How the results depend on the processing

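Of the 23 called members, 9 kept their call and direction under every alternative run (ABCA1, CH25H, EBP, FASN, HMGCS1, INSIG1, MSMO1, STARD4 and TM7SF2), and no called member reversed. The filter of 10 CPM removed CH25H from the test, which gave it no value there. With 0 counts in both shControl libraries, CH25H could not change direction under any alternative, so its place among the 9 is no check. Without either shRALY library, 14 called members lost their call in at least 1 of the refits, which have fewer samples. Same-numbered libraries were correlated at 0.072 in their deviations from the group means, with 2 numbers only, so they share a number and are not treated as pairs. With the replicate block, 3639 genes were higher and 3619 lower over all tested genes, and among members 9 were higher and 16 lower, SREBF1 (-0.24, edgeR adjusted p = 0.0166) and ACSL1 (-0.33, edgeR adjusted p = 0.0461) being added. Both also passed with library size alone (-0.31 and -0.38), so that 1 SREBP regulator and 1 acyl-CoA or glycerolipid gene were lower under each of these settings, against 0 and 0. Library size alone also brought the member median log2 fold change to 0.001 and the higher genes of fatty acid supply to 3. With DESeq2, higher genes of fatty acid supply numbered 3, lower other sterol genes 3 and lower triglyceride genes 3. The filter of 10 CPM also left 3 lower triglyceride genes. With no filter, higher genes of fatty acid supply numbered 3 and lower sterol transport genes 1. Over all tested genes DESeq2 called 2673 higher and 2438 lower. Leaving out 1 library at a time gave 2040 to 3559 higher and 1897 to 3499 lower genes over all tested genes, and 7 to 14 higher and 4 to 15 lower members. By role, higher and lower genes ranged from 3 to 7 and 1 to 6 for cholesterol synthesis, 1 to 3 and 0 to 1 for SREBP regulators, 0 to 3 lower for sterol transport, 0 to 2 and 1 to 6 for fatty acid synthesis, and 0 to 1 and 0 to 1 for acyl-CoA and glycerolipid genes. The ranges were 4 to 8 and 2 to 5 for other sterol genes, 2 to 5 higher for fatty acid supply, 1 to 4 and 2 to 5 for triglyceride genes and 3 to 11 higher for fatty acid oxidation. The member median ranged from -0.029 to 0.073. Uncalled members near 0 changed sign. ELOVL5 was 0.00867 with DESeq2, 0.00514 with RLE size factors and 0.00519 with the 10 CPM filter. NPC2 was 0.00152 with DESeq2. Leaving out 1 library at a time, NPC2 ranged from -0.0823 to 0.0705, ELOVL5 from -0.0762 to 0.0821, SC5D from -0.0406 to 0.396, SREBF2 from -0.0416 to 0.252 and SOAT1 from -0.271 to 0.113.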
